A study of Mus musculus with 6 samples.

Results

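The regions described here are stretches of the mouse genome that were bound as methylated DNA in hematopoietic stem cells and in common myeloid progenitors, with no such signal called in erythroblasts. DNA from each cell type was pulled down with MBD2, a protein that holds methylated CpG sites, and was sequenced. The authors' peaks of the 3 cell types were merged where they overlapped or touched on the 19 autosomes, and the regions were chosen by the presence of an HSC peak and a CMP peak and the absence of an ERY peak. They number 22118 of 85078 merged regions, or 26.0% (95% exact binomial interval 25.7 to 26.3%).

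The stem cell library (HSC) came from lineage-negative marrow cells with Sca-1 and c-kit on their surface. The progenitor library (CMP) came from lineage-negative cells with c-kit and without Sca-1. The labels give adult female C57BL/6 bone marrow as the source of both, and name the third library only as erythroblast (ERY), from female C57BL/6 mice, with no account of its isolation. No treatment or engineered allele is given for any group. The HSC and CMP gates are surface phenotypes that also hold other progenitors, and no marker of cell identity was measured in these libraries. Each cell type had 1 MBD2-enriched library, and the 3 supernatant libraries are not analysed here. The autosomes carried 83430 HSC peaks, 49054 CMP peaks and 27266 ERY peaks. Read depth is unknown, so a region without an ERY peak is one that the shortest list does not mark, which does not show it free of methylation. With 1 library per cell type, and with the regions selected on the same lists, no test between cell types or classes was possible. The intervals below cover counting error only and treat regions as independent.

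As background, methyl groups on CpG cytosines are copied at each cell division by the maintenance methyltransferase Dnmt1. They are lost when copying lags behind replication or when TET enzymes oxidise them. Most CpG sites outside CpG islands are methylated in mammalian cells, and an MBD pulldown favours stretches that hold many methylated CpG sites close together. Red cell development is known for a broad decrease of methylation over the last divisions before the nucleus is expelled. Peak lists of successive stages show at which stage a region is last marked, within the sensitivity of each list.

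Of all 82364 regions with an HSC peak, 69.1% lacked an ERY peak. Of the 46514 regions with both an HSC and a CMP peak, 47.6% lacked one (interval 47.1 to 48.0%), and these are the 22118 regions described. The other 24396 had a peak in all 3 lists and serve as the comparison, together with 34802 regions that had a peak in HSC alone. These shares follow from the rule that chose the regions and are given as a description. The regions made up 45.9% of the 48228 regions with a CMP peak and 26.9% of those with an HSC peak.

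A typical member was a single peak of each list lying over the same ground. In 98.5% of members (21778) there was 1 HSC peak and 1 CMP peak. The median merged width was 891 bp, with the middle 50% of members between 762 and 1023 bp and the extremes at 252 and 9934 bp. HSC covered a median of 761 bp of a member (interval 757 to 765 bp), CMP covered 758 bp (755 to 762 bp), and ERY covered none by definition. The median of the bases covered by both was 626 bp. The midpoints of the HSC and the CMP footprint lay a median of 78.0 bp apart.

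The bases covered by called peaks were much the same in HSC and CMP at the median. The ratio of CMP to HSC covered bases had a median of 0.978 (interval 0.974 to 0.983), and the middle 50% of members lay between 0.801 and 1.21. CMP covered fewer bases than HSC in 52.8% of members (52.1 to 53.4%) and more in 47.0%. In regions with a peak in all 3 lists the ratio had a median of 1.00 (interval 0.997 to 1.005), and CMP covered fewer bases in 49.7% (49.1 to 50.4%). CMP covered under 50% of the HSC bases in 565 members (2.55%, interval 2.35 to 2.77%) and in 394 regions of the all-3 class (1.62%, 1.46 to 1.78%). The CMP footprint lay wholly inside the HSC footprint in 28.6% of members, the reverse held in 22.0%, and in 49.4% the footprints were shifted against each other. Of the bases that either list covered, both covered a median of 72.5% in members and 76.0% in the all-3 class. Regions with a much smaller CMP than HSC footprint were thus few in both classes.

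Members were narrower than the regions that kept a peak in ERY and wider than those with an HSC peak alone. Median HSC cover was 761 bp in members, 885 bp in the all-3 class (interval 880 to 891 bp) and 677 bp in HSC alone (675 to 680 bp). Median CMP cover was 758 bp in members and 898 bp in the all-3 class (895 to 901 bp). HSC covered 2000 bp or more in 0.542% of members (120) and in 3.82% of the all-3 class (931). It covered 500 bp or less in 12.6% of members (2790) and in 6.41% of the all-3 class (1563). The widths and the classes come from the same peak lists, and how far width alone sets the class was not tested.

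**Figure D1:**
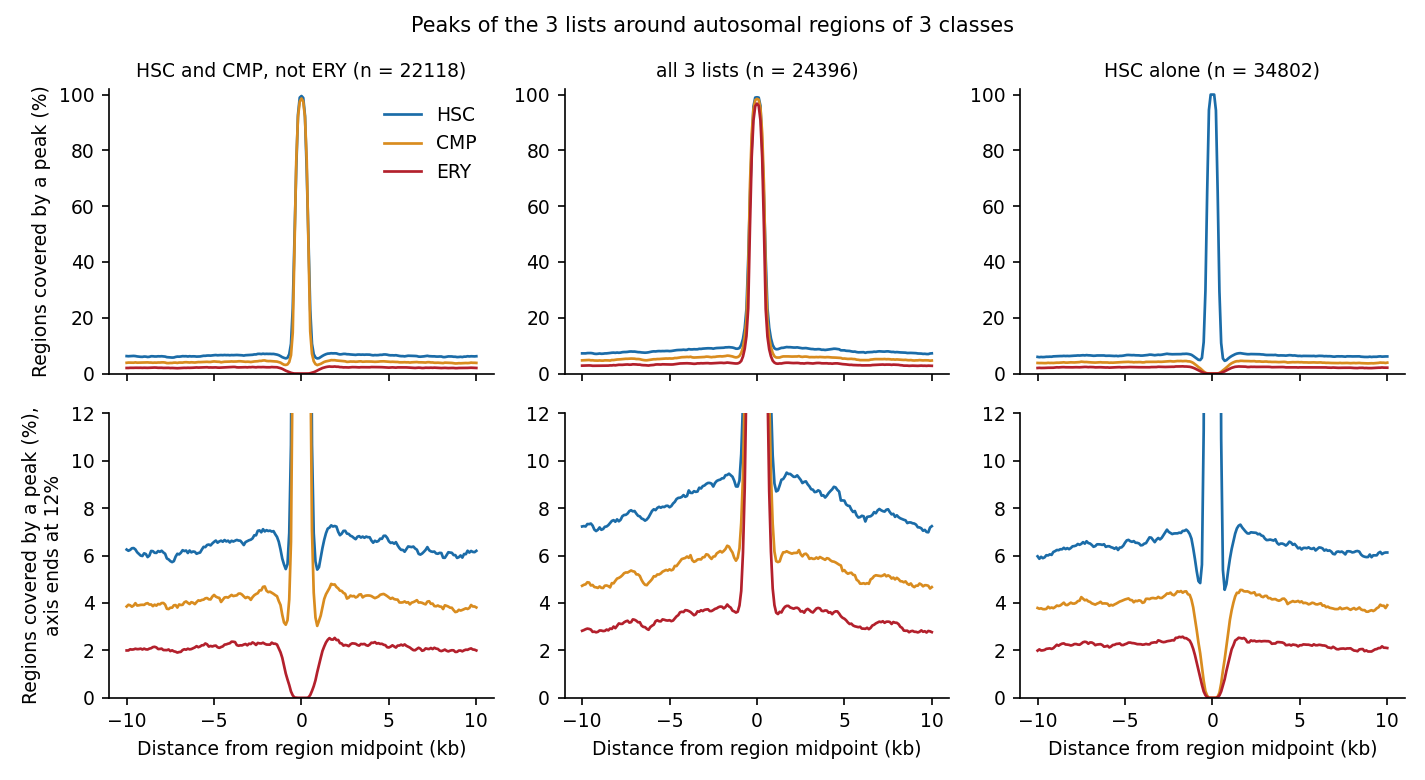
Share of regions (y axis, percent) covered by a peak of the HSC (blue), CMP (orange) and ERY (red) lists at each distance from the region midpoint (x axis, kb). The columns are members, regions in all 3 lists and regions in HSC alone. The lower row repeats the upper one on an axis that ends at 12%. At the midpoint HSC covered 99.5% of members, CMP 98.6% and ERY 0%, while from 2 to 10 kb away the ERY line lay near 2.14% around members and near 3.25% around regions in all 3 lists.

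The empty ERY midpoint in the plot of peaks around the regions is fixed by the rule, and the flanks are not. From 2 to 10 kb on either side of a member's midpoint, a position was under an HSC peak in 6.39% of cases, under a CMP peak in 4.09% and under an ERY peak in 2.14%. ERY cover of these flanks was thus 33.5% of HSC cover, and CMP cover was 64.1% of it. Over all autosomal peaks, the bases covered in ERY came to 33.3% of those in HSC, and those in CMP to 62.4%, so the flanks of members were close to the lists as a whole. Around regions in HSC alone the values were 34.7% for ERY and 62.6% for CMP, and around the all-3 class they were 40.4% and 66.0%. The flanks of members and of HSC-alone regions therefore resembled each other in all 3 lists, although the regions themselves differ in their CMP peak by definition. The all-3 class had denser flanks, with HSC at 8.04%, CMP at 5.31% and ERY at 3.25%.

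The nearest ERY peak lay a median of 20197.5 bp from a member (interval 19693 to 20745 bp). For regions in HSC alone it lay 19103.5 bp away (18722 to 19514 bp). An ERY peak was within 1000 bp of 1254 members (5.67%, interval 5.37 to 5.98%) and of 5.70% of HSC-alone regions (5.46 to 5.95%). Within 100000 bp there was an ERY peak for 86.1% of members and 88.1% of HSC-alone regions. Members and HSC-alone regions thus stood at nearly the same distance from ERY peaks.

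Some members missed the ERY list by a few bases. The closest, on chromosome 6 at 5372977 to 5374078, was covered on 1102 bp in HSC and 736 bp in CMP, and an ERY peak began or ended 2 bp away. Chromosome 5 held the next, with ERY peaks 3 bp from the region 129655457 to 129656324, 4 bp from 125097658 to 125098463 and 12 bp from 115401531 to 115402145. The last of the 5 closest, on chromosome 7 between 37314153 and 37315008, had an ERY peak 14 bp away. Such regions are members by the letter of the rule, and 599 members (2.71%) had an ERY peak within 500 bp.

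On the other side of the rule stood regions in which ERY marked a small part. On chromosome 9 at 3021797 to 3033340, HSC covered all 11544 bp, CMP 10823 bp and ERY 1380 bp, or 11.95% of the width. The region on chromosome 1 at 34330539 to 34334655 was covered by HSC on 4117 bp, by CMP on 2653 bp and by ERY on 742 bp, which is 18.02%. The next 3 regions had an ERY share of 18.4% (chromosome 10 at 8499902 to 8501503), 18.85% (chromosome 4 at 151739978 to 151743012) and 18.9% (chromosome 2 at 25431817 to 25435171). ERY covered under 50% of the merged width in 1795 of the 24396 regions in all 3 lists (7.36%). These 5 had the smallest ERY shares of the class, which is not the same as the fewest ERY bases. ERY cover in that class had a median of 802 bp and a lowest value of 279 bp, and the region on chromosome 9 lay above that median.

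The size of the CMP peak separated members from retained regions more than the size of the HSC peak did. All 46514 regions with HSC and CMP peaks were ranked by covered bases and put into quintiles, once for each list. From the lowest to the highest HSC quintile, the share without an ERY peak went from 61.3% (252 to 610 bp in HSC) to 29.5% (1114 bp and above). From the lowest to the highest CMP quintile it went from 67.1% (214 to 650 bp in CMP) to 21.2% (1011 bp and above). Every step between neighbouring quintiles was larger than the intervals of the shares, which were about 1 percentage point to either side. The widths and the class come from the same peak lists, so the gradient is a description.

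**Figure D2:**
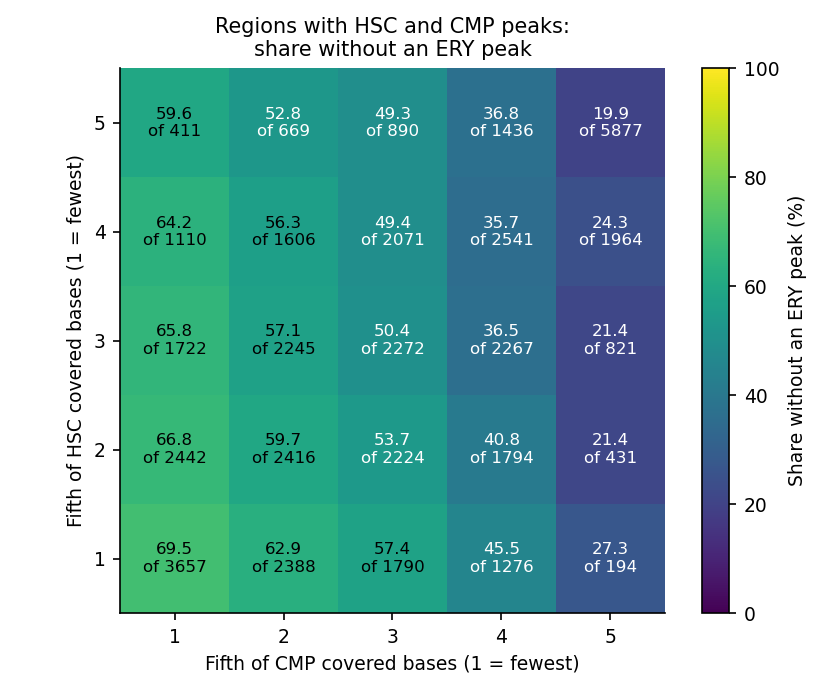
Share of regions without an ERY peak (colour and upper number, percent) among regions with HSC and CMP peaks, by quintile of CMP covered bases (x axis) and quintile of HSC covered bases (y axis). The lower number is the regions in the cell. The share moves more from left to right, from 69.5% to 27.3% in the bottom row, than from bottom to top, from 69.5% to 59.6% in the left column.

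With both sizes considered together, the CMP size carried most of the gradient. Among regions in the lowest HSC quintile, 69.5% of 3657 lacked an ERY peak where CMP was also in its lowest quintile, and 27.3% of 194 (interval 21.2 to 34.2%) where CMP was in its highest. Among regions in the highest HSC quintile, the corresponding shares were 59.6% of 411 (54.7 to 64.4%) and 19.9% of 5877 (18.9 to 21.0%). At a fixed CMP quintile the HSC size mattered less. In the third CMP quintile the share was 57.4% with a narrow HSC peak and 49.3% with a wide one. Regions narrow in HSC and wide in CMP thus stood at 27.3%, and regions wide in HSC and narrow in CMP at 59.6%.

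The 10 widest members lay on 6 chromosomes. The leading pair was on chromosome 11 close to the first peak of that chromosome. The region at 3049310 to 3059243 (9934 bp) was covered on 9933 bp in CMP and on 2448 bp in HSC, and that at 2999952 to 3005230 (5279 bp) on 5168 bp in CMP and 5279 bp in HSC. The nearest ERY peaks lay 21309 and 75322 bp away. The narrower region holds the first peak of the chromosome, and the wider one starts 49.4 kb from it. A region on chromosome 9 at 3008083 to 3011292 lay 8.28 kb from the first peak of its chromosome. It was covered on 3210 bp in HSC and on 495 bp in CMP, and an ERY peak lay 418 bp away. Mouse chromosomes have their centromere at this end, next to long satellite repeats. Repeat content was not examined, since no mm9 genome was used.

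The third and the tenth widest members were both on chromosome 6. The first, at 52152373 to 52157118 (4746 bp), was covered on 4746 bp in HSC and 4695 bp in CMP, and the second, at 52125025 to 52128161 (3137 bp), on 2749 bp in HSC and 3114 bp in CMP. Both belong to the run of members described next. Of the remaining wide members, 3 were on chromosome 8, spanning 87307676 to 87312152 with a width of 4477 bp, 91553577 to 91557374 with 3798 bp and 117312324 to 117315526 with 3203 bp. Chromosome 7 held one from 38967866 to 38972053, of 4188 bp, and chromosome 19 one from 7168388 to 7171808, of 3421 bp. The region on chromosome 7 was covered on 1394 bp in HSC and on its full 4188 bp in CMP. The region at 87307676 on chromosome 8 was also the member with most peaks, 3 in HSC and 2 in CMP. The next by number of peaks had 2 of each list and lay on chromosome 1 at 39372247 to 39374548 and at 91584489 to 91587008.

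Members formed 16090 runs, a run being a series of members with no region of another class between them. A single member made up 11740 of these runs, so 53.1% of members stood alone, as did 47.8% of the all-3 class and 34.1% of regions in HSC alone. In runs of 3 or more lay 18.5% of members (interval 17.99 to 19.02%), against 24.2% of the all-3 class and 38.0% of HSC alone. Ranked by either measure, the classes stood in order of size. Members made up 26.0% of all regions, the all-3 class 28.7% and HSC alone 40.9%. How far class size sets these shares was not tested. Runs of 5 or more members numbered 97, with a median span of 90.4 kb. The all-3 class had 214 runs of 5 or more and HSC alone 621, and their longest runs held 10 and 12 regions. The run with most members held 11.

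That run lay on chromosome 6 at 52113910 to 52157118, a span of 43209 bp. By general knowledge of the mouse map this stretch of mm9 belongs to the Hoxa cluster. No mm9 annotation was used, so single genes are not assigned. The Hoxa genes encode homeodomain transcription factors, several of which are active in stem cells and early progenitors and are switched off as blood cells mature. The 11 members were 897 to 4746 bp wide with a median of 1385 bp, and the gaps between them were 84 to 8250 bp. Together they were covered on 18801 bp in HSC and 19081 bp in CMP, a CMP cover of 101.5% of HSC, and on no base in ERY.

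**Figure D3:**
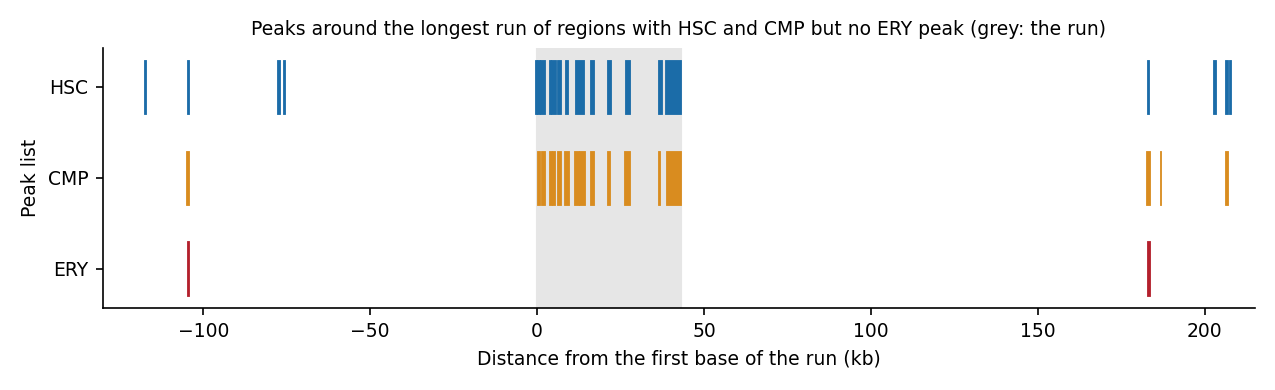
Peaks of the HSC, CMP and ERY lists (rows) by distance from the first base of the run with most members (x axis, kb), which the grey band marks. Members cover 46.5% of the band of 43.2 kb, with HSC and CMP peaks at the same places, the ERY row is empty there, and the nearest ERY peaks lie 104 kb before and 140 kb after the band.

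Along the run the HSC and CMP footprints followed each other closely. In order of position the members were covered in HSC on 877, 1397, 1959, 1319, 1069, 2749, 993, 957, 1507, 1228 and 4746 bp. In CMP they were covered on 897, 1333, 1810, 1356, 1385, 3114, 1085, 1012, 1713, 681 and 4695 bp. CMP covered more bases than HSC in 7 of the 11, and the exception in size was the tenth, at 52150010 to 52151237, where CMP covered 55.5% of the HSC bases. An HSC peak without a CMP counterpart lay just before the run at 52113167 to 52113902. After the run none of the 3 lists had a peak until 52296456, so the marked stretch ended in the last member in both HSC and CMP.

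Between the ERY peaks on either side lay 287 kb with 14 regions, of which 11 were members and 3 were in HSC alone. ERY-free stretches with a member were common, but few held as many members. Among the 1908 stretches at least as long as this one, the median held 2 members and the fullest 15. In all, 11499 stretches between consecutive ERY peaks held a member, with a median length of 76.0 kb, 628 held 5 or more and 29 held 10 or more. Among the 17524 stretches with a region of any class, that on chromosome 6 ranked the highest by the bases its members covered (20099 bp). The next held 12972 bp on chromosome 5 at 30444444 to 30923009. By number of members the highest, with 15 members in 460 kb, was on chromosome 8 at 121351539 to 121812027. These stretches were compared after the run had been seen. The run on chromosome 6 had 25.5 members per 100 kb, against a median of 5.89 over the 97 runs of 5 or more. Among those runs it ranked 2 by the median width of its members and 9 by their density.

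The runs next in length held 8 members and were looser. On chromosome 8 at 3754092 to 3817017, the 8 members were 419 to 1103 bp wide. HSC covered 5330 bp of them and CMP 4868 bp (91.3%), and the nearest ERY peaks were between 12558 and 74230 bp from a member. On chromosome 14 at 40910026 to 41410227, the 8 members spread over 500.2 kb with a median width of 640 bp. HSC covered 5636 bp and CMP 5123 bp (90.9%). In each of these runs CMP covered more bases than HSC in 4 of the 8 members. The lower CMP total on chromosome 14 rested on its first member, at 40910026, with 1325 bp in HSC and 637 bp in CMP. Without it CMP covered 4486 bp and HSC 4311 bp. On chromosome 8 the CMP total stayed lower without the member at 3793356, with 4327 bp against 4543 bp in HSC. Each member left out was the one with the largest CMP shortfall of its run.

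Members occurred on each autosome in step with all regions. Their density ranged from 7.33 per Mb on chromosome 14 to 11.6 on chromosome 19. Across the 19 autosomes it followed the density of all merged regions (Pearson's r = 0.982, Spearman's rho = 0.977), a relation that is partly built in, since members are counted among the regions. The share of HSC and CMP regions without an ERY peak averaged 47.6% ± 1.93 (SD over the 19 chromosomes). It was lowest on chromosome 5 (44.8%, interval 43.1 to 46.4%) and highest on chromosome 14 (51.3%, 48.9 to 53.7%). The share was lower on autosomes with denser regions (r = -0.708, rho = -0.668, n = 19). All chromosomes share the same 3 libraries, so these are descriptions.

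**Figure D4:**
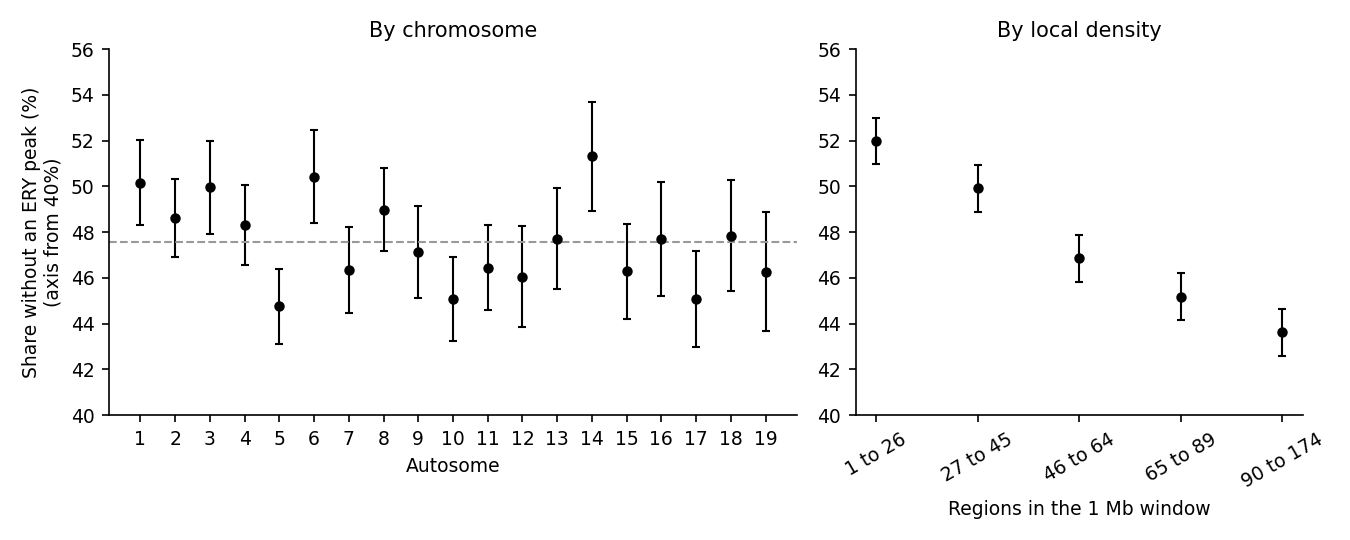
Share of regions with HSC and CMP peaks that lack an ERY peak (y axes, percent, starting at 40%), by autosome (left) and by the number of merged regions in the surrounding 1 Mb window, in quintiles (right). Points are shares, bars are 95% exact binomial intervals, and the dashed line is the share over all autosomes. The share goes from 52.0% in the sparsest windows to 43.6% in the densest.

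The same relation held at the scale of 1 Mb, and it accompanied peak size. In the sparsest quintile of windows (1 to 26 regions) 52.0% of regions with HSC and CMP peaks lacked an ERY peak (interval 51.0 to 53.0%), and in the densest (90 to 174 regions) 43.6% did (42.6 to 44.6%). Regions in dense windows were also wider, with a median HSC cover of 912 bp against 727 bp and a median CMP cover of 881 bp against 737 bp. Among regions of like CMP cover the relation did not appear. In the lowest CMP quintile the share was 65.1% in sparse and 68.2% in dense windows. In the third it was 51.5% and 52.6%, and in the highest 20.2% (17.7 to 22.8%) and 21.1% (19.5 to 22.7%).

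Members were most crowded toward the distal chromosome ends. The distal 10 Mb held 15.7 members per Mb, the proximal 10 Mb 7.78 and the part between them 8.69. The share without an ERY peak was 46.0% in the distal 10 Mb (interval 44.8 to 47.2%), 48.1% in the proximal 10 Mb (46.4 to 49.9%) and 47.8% between (47.3 to 48.3%). It was lower in the distal 10 Mb than between the ends on 14 of 19 autosomes. At a width of 5 Mb the distal share was 47.5% (45.6 to 49.4%), and 10 of 19 autosomes were lower. Within the same quintile of HSC cover the distal share was 62.7% against 60.9% between the ends in the lowest quintile. In the following quintiles it was 55.4% against 54.6%, 49.5% against 49.0% and 44.4% against 43.3%. In the highest it was 29.0% against 29.8%, and the intervals overlapped in each quintile. The crowding thus held for regions with HSC and CMP peaks, whether or not they had an ERY peak.

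The windows of 1 Mb with most members were on chromosome 5 from 114 to 115 Mb, with 55 members, and on chromosome 4 from 153 to 154 Mb and 150 to 151 Mb, with 49 and 48. A median window held 7 members. In the window on chromosome 5, 61 regions had a peak in all 3 lists, and the share without an ERY peak was 47.4% (interval 38.1 to 56.9%). In the windows on chromosome 4 the share was 57.6% (46.5 to 68.3%) and 61.5% (49.8 to 72.3%). Of these windows, only the last had an interval above the share over all autosomes, and it was picked out of 2411 windows for its count.

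**Figure D5:**
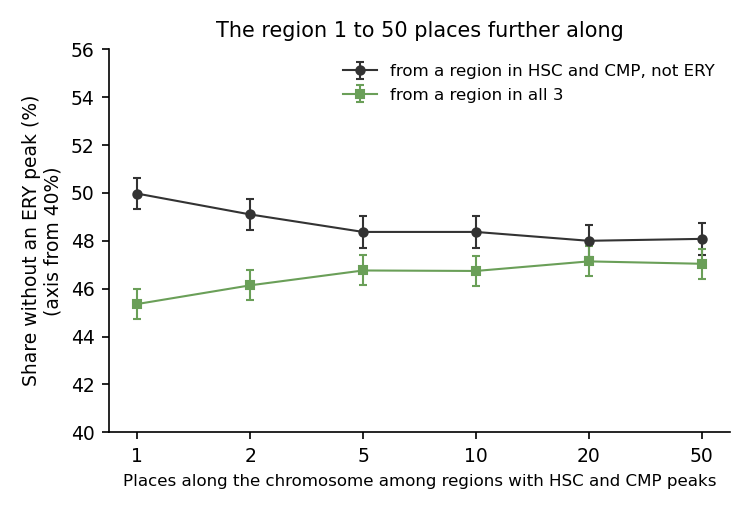
Share of regions without an ERY peak (y axis, percent, starting at 40%) at 1 to 50 places further along the chromosome (x axis) among regions with HSC and CMP peaks, starting from a member (circles) or from a region in all 3 lists (squares). Bars are 95% exact binomial intervals. The lines start at 49.97% and 45.4% and approach each other with distance.

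Neighbouring regions were somewhat alike. Among regions with HSC and CMP peaks, the one following a member was itself a member in 49.97% of cases (interval 49.3 to 50.6%), and the one following a region in all 3 lists was a member in 45.4% (44.7 to 46.0%). The median distance to it was 21792 bp and 17438 bp. At 10 places the shares were 48.4% and 46.7%, and at 50 places 48.1% and 47.0%. The difference at 1 place had the same direction in each quintile of CMP cover of the first region. It went from 49.9% against 47.7% in the lowest to 48.0% against 42.6% in the highest. In the lowest quintile the intervals overlapped (48.7 to 51.2% and 45.9 to 49.5%). The cover of the following region was not matched. Members also stood farther from other regions than the all-3 class did, and about as far as HSC alone. Their nearest region of any class lay a median of 5082 bp away (interval 4945 to 5236 bp). It lay 3732 bp away for the all-3 class (3639 to 3839 bp) and 4938 bp for HSC alone (4847 to 5048 bp).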

How the data were processed

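MBD2-bound DNA of 3 cell types was sequenced as 36 bp single-end reads, per the labels' protocols. The authors deposited 1 list of peak positions per cell type on mm9, per the labels and file headers, with no other value such as a score, ratio or count. The sources used here name no aligner, peak caller, threshold or control, and depth is unknown. Coordinates are printed 1-based.

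Peaks on the 19 autosomes were merged where they overlapped or touched, and covered bases, gaps, runs and neighbours were computed with numpy 2.4.6, scipy 1.17.1 and pandas 2.3.3 in Python 3.11.15. Counts matched bedtools 2.31.1, and the class rule was tested on simulated data. Shares carry 95% Clopper-Pearson intervals, and medians carry order-statistic ones. The members and lists were chosen with earlier results of these data known. Regions named were the 10 widest, the 3 with most peaks, the 3 longest runs, the 3 fullest windows and 5 on each side of the rule. The sequence and gene tables used here belong to GRCm38, so sequences, CpG content, gene features, gene lists and ETS motifs were not analysed here.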

Additional observations from a re-analysis of the deposited data

How the results depend on the processing

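The number of members was 22118. It stayed within 1.5 times when peaks up to 500 bp apart were merged, when 50% of the region had to be covered, when no ERY peak within 1 kb was allowed and when any 1 chromosome was left out (20500 to 21443). It was 9450 with the wider 50% of each list and 38889 in fixed 1 kb bins, both by construction, since the first drops peaks and the second cuts regions into pieces. The share of regions with HSC and CMP peaks that lack an ERY peak was 46.9% with merging over 500 bp and 51.0% with 50% covered. It was 44.9% without ERY peaks within 1 kb, 52.4% with the wider 50% of each list and 47.4 to 47.8% without single chromosomes. Taking the wider 50% of each list also drops ERY peaks, so the 52.4% cannot be set against the share of wide regions in the full lists. The median width of 891 bp became 761 bp counted as HSC cover and 758 bp as CMP cover, by construction. The distal share of 46.0% was 47.5% with ends of 5 Mb, where the cause was not tested. The run on chromosome 6 was the longest under each alternative tried for it, with 9 to 11 members. Those runs, the 50% rule for the share, and single-peak regions for the distance to ERY and the width difference were added after seeing the data. No stricter score threshold could be tried, since the lists hold none. With no read depth, how far the shorter ERY list sets membership was not tested.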

Other observations

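Chromosome X lies outside the rule. There, 958 of 1496 regions with HSC and CMP peaks had no ERY peak (64.0%, interval 61.6 to 66.5%), above the highest autosome. Their median HSC cover was 766 bp, against 908.5 bp for X regions in all 3 lists, and the longest run of such regions on X held 7.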
